A study of Mus musculus with 8 samples.

Results

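The comparison covers 4 of the 8 RNA-seq libraries of the series: 2 from cells given OTX-015 and 2 from cells given the solvent DMSO, chosen by the treatment in their labels. Every library came from the RN2 line, acute myeloid leukaemia cells of C57BL/6J mice that express an MLL-AF9 fusion together with an activated NRAS, so treated and control cells share these alleles. The other groups, 2 libraries each, received RVX-208 or BBC1115. The labels used here state no dose and no duration of treatment, nor whether the line is 1 clone. The labels call the libraries biological replicates without saying that they came from separate cultures, so the p-values measure the spread between these libraries.

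OTX-015 (birabresib) is an inhibitor of the BET proteins, which bind acetylated lysines on histones through paired bromodomains and help RNA polymerase II leave the promoter. Genes that depend on densely acetylated enhancers, among them Myc and many genes of myeloid identity, are known to lose expression when BET proteins are displaced. Hexim1, an inhibitor of the elongation kinase P-TEFb, is known to rise and serves as a marker that a BET inhibitor has acted. The results below concern what happened outside that set of markers: cell-surface receptors, RNA-modifying enzymes, amino acid metabolism, and signalling, cytoskeletal and lipid genes.

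Both markers moved in the known directions. Myc, the transcription factor that drives growth genes, stood at 99.7 and 95.9 RPKM in DMSO and at 3.75 and 3.74 RPKM in OTX-015. RPKM is reads scaled to transcript length and to the total of the library. Hexim1 stood at 23.9 and 22.7 RPKM in DMSO and at 128 and 116 RPKM in OTX-015. The groups did not overlap for either gene.

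Depth, estimated from the RPKM that 1 read gives, was between 10900000 and 18000000 reads per library, and the authors' RPKM totals lay between 375973 and 467673. Of 9975 genes tested with limma, 24.2% rose and 40% fell at an adjusted p under 0.05. At a log2 fold change of at least 1 these shares were 3.69% and 9.72%. Over all tested genes the log2 fold change had a median of -0.13 with the deposited values and of 0.03 after upper-quartile scaling, and with it the share of higher genes among the calls went from 37.7% to 53.6%. After that scaling 3555 of the 9975 genes rose and 3079 fell. The counts of a list are to be read beside the all-gene values of the same scaling. A list is therefore described by its shift, the median log2 fold change of its tested members less that of all genes tested. Markers of other cells were scarce. Cd3e, Pax5 and Col1a2 were among 35 markers of lymphoid, erythroid, megakaryocytic, stromal and epithelial cells listed at 0 in all 4 libraries, of 74 such markers in the table.

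Of the 72 function lists with at least 10 tested genes, the inhibitory and activating receptors that myeloid cells carry on their surface had the largest share of falls. Of 36 tested C-type lectins, Siglecs, paired immunoglobulin-like receptors and their partners, 34 fell and 1 rose (33 and 1 after upper-quartile scaling). Falls by at least 1 on the log2 scale numbered 26, against the 9.72% of all genes. The shift was -1.13, and between -1.17 and -1.10 when any 1 of the 4 libraries was left out. Their summed level was 1679 and 1499 RPKM in DMSO and 881 and 816 RPKM in OTX-015. In bulk RNA, fewer cells of a type and less RNA per cell cannot be told apart.

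Clec12a, an inhibitory lectin that is also a surface marker of leukaemic myeloid cells (chr6:129342691-129365303, mm10, plus strand), gave 119 and 109 RPKM in DMSO and 16.2 and 15.3 RPKM in OTX-015. Its log2 fold change was -2.77 ± 0.11 (SE, n = 2 libraries a group, limma adjusted p = 1.27e-08). Cd33, a sialic acid-binding Siglec used as a myeloid leukaemia antigen in humans, gave 42.2 and 50.4 RPKM against 6.65 and 6.17 RPKM. For both antigens every OTX-015 library lay far below every DMSO library, at 7.22-fold lower means. Lair1, an inhibitory receptor for collagen, went from 11.3 and 11.8 RPKM to 1.08 and 0.736 RPKM, the steepest drop of the named receptors by ratio, 12.7-fold.

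The activating side of the same families fell too. Clec4d and Clec4e, lectins that sense microbial glycolipids, had mean levels of 13.9 and 18.3 RPKM in DMSO and 2.47 and 3.58 RPKM in OTX-015. Trem3, a receptor of the TREM group, went from 55.8 and 45.7 RPKM to 10.6 and 12 RPKM, and Cd300lb, an activating receptor of the CD300 group, from 18.2 and 19 RPKM to 3.88 and 3.21 RPKM. Pilra, an inhibitory paired receptor, went from 37.3 and 32.7 RPKM to 7.03 and 5.97 RPKM, and Lilrb4a, an inhibitory receptor with a close copy in the mouse genome, from 64.7 and 62.7 RPKM to 20 and 20.6 RPKM. Cd47, the signal by which cells avoid being engulfed, fell from 272 and 262 RPKM to 129 and 124 RPKM. Tyrobp, the adaptor that many of these receptors signal through, gave 733 and 585 RPKM in DMSO and 489 and 443 RPKM in OTX-015. Its log2 fold change was -0.49 ± 0.14 (limma adjusted p = 0.00861), and the call was lost with upper-quartile scaling (adjusted p = 0.0537), without DMSO replicate 1 (adjusted p = 0.0515) and without OTX-015 replicate 2 (adjusted p = 0.0825).

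Clec2i, a lectin that serves as a ligand for receptors of the Nkrp1 type on lymphoid cells, was the 1 member that rose. It stood at 32.5 and 32.9 RPKM in DMSO and at 58 and 56.7 RPKM in OTX-015, a log2 fold change of 0.79 ± 0.08 (limma adjusted p = 6.69e-06).

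**Figure D1:**
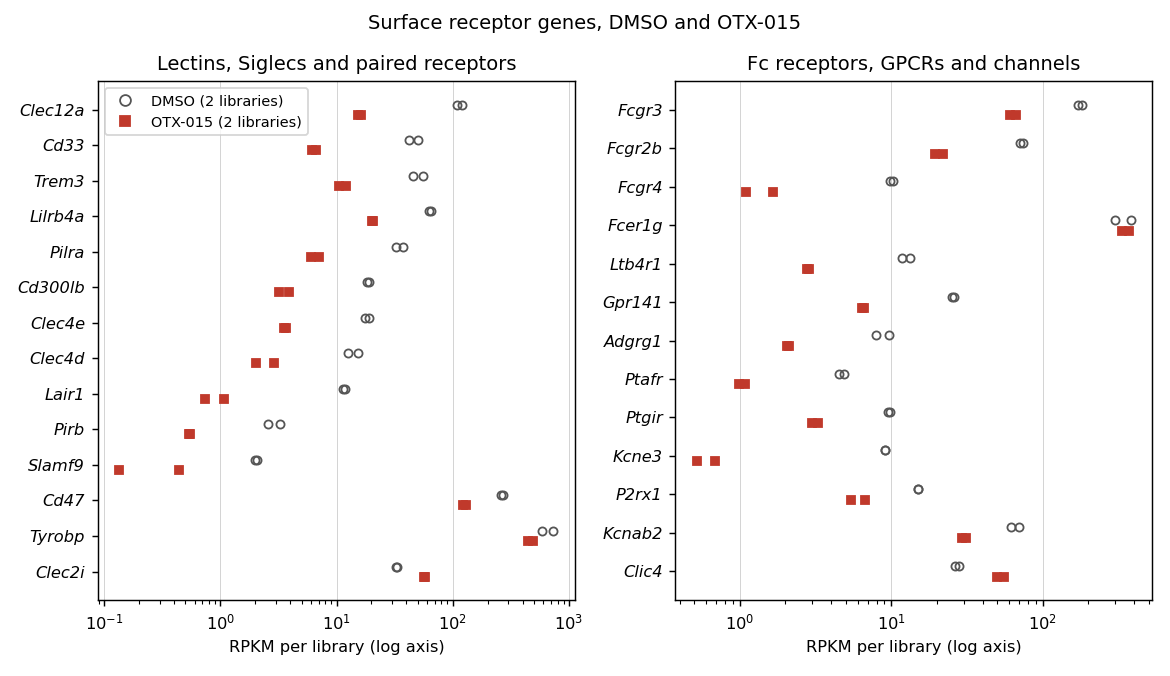
RPKM of single libraries on a log axis for genes of surface receptors, adaptors and channels, with open circles for the 2 DMSO libraries and filled squares for the 2 OTX-015 libraries. Clec12a and Cd33 lie about 7.22-fold lower in OTX-015, Fcer1g overlaps between the groups, and Clec2i and Clic4 lie to the right of DMSO.

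Promoter sequence of this receptor list was examined for the myeloid element bound by PU.1, the product of Spi1, because Spi1 itself went from 158 and 148 RPKM to 58.8 and 50.8 RPKM. The motif searched was GAGGAAGT on either strand, which other ETS factors can also bind, and it was chosen after the expression values were known. RefSeq windows of 300 bases (GRCm38.p6, 250 before to 50 after the start) were available for 28 of the 36 genes. The motif was in 4 of their 31 windows (12.9%), in 41 of 1016 windows (4.0%) of genes lower by at least 1 log2 and in 326 of 9969 windows (3.3%) of all genes tested. Over the other gene lists the share ran from 0.0%, as for amino acid transporters, to 19.2% for the myeloid identity list. Lists with an upward shift also had high shares, 11.8% for TRIM proteins and 11.1% for ion channels. The share was thus not particular to this list, and a role of PU.1 was not tested. A match is a description of the letters and not a bound site. The 80 bases shown lie before the start of 2 members that fell by at least 1 log2 and hold the motif there, written 5′ to 3′ on the gene's strand with the motif in capitals: Pirb at chr7:3720459-3720538 (minus strand) and Slamf9 at chr1:172475280-172475359 (plus strand).
Pirb: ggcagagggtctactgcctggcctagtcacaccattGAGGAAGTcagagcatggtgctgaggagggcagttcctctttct
Slamf9: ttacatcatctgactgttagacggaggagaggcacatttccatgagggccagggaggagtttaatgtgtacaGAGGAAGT
Pirb, an inhibitory receptor for MHC class I whose family holds near-identical copies, stood at 2.55 and 3.25 RPKM in DMSO and at 0.536 and 0.552 RPKM in OTX-015. Slamf9, a receptor of the SLAM family, stood at 2.06 and 2 RPKM and at 0.445 and 0.136 RPKM. Both were low genes in DMSO already.

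Receptors for antibody and for lipid mediators followed. Of 12 tested genes of Fc receptors and complement, 7 fell and none rose (the same after upper-quartile scaling), and 5 fell by at least 1 log2. Among all genes 40% fell, 9.72% by at least 1 log2, and 24.2% rose. The shift of this short list was -0.39. The low-affinity IgG receptors Fcgr3, Fcgr2b and Fcgr4 had means of 175, 72.2 and 10 RPKM in DMSO and of 63.7, 20.7 and 1.38 RPKM in OTX-015. Cd93, a receptor related to C1q, went from 39.7 and 50.5 RPKM to 8.37 and 8.11 RPKM. The shared signalling chain of activating Fc receptors, Fcer1g, did not pass the test: 380 and 301 RPKM in DMSO overlapped 371 and 333 RPKM in OTX-015.

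Of 28 tested G protein-coupled receptors of leukocytes, 18 fell and 4 rose (18 and 5 after upper-quartile scaling), 12 of them by at least 1 log2 and all 12 downward. Of all genes tested, 40% were lower and 24.2% higher, and 9.72% of all genes were lower by at least 1 log2. The list had a shift of -0.68. Ltb4r1, the leukotriene B4 receptor, went from 13.4 and 11.7 RPKM to 2.76 and 2.84 RPKM. Ptafr, the receptor of platelet-activating factor, and Ptgir, that of prostacyclin, had means of 4.69 and 9.68 RPKM in DMSO and of 1.03 and 3.14 RPKM in OTX-015. The adhesion receptor Adgrg1 went from 7.94 and 9.6 RPKM to 2.06 and 2.1 RPKM and the orphan receptor Gpr141 from 25.1 and 25.8 RPKM to 6.45 and 6.57 RPKM.

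Of 38 tested ion channels, 14 rose and 13 fell (18 and 11 after upper-quartile scaling), where 24.2% of all genes rose and 40% fell with the deposited values (3555 and 3079 of 9975 after that scaling). By at least 1 log2, 7 fell and 2 rose, and 1 of these 7, Hvcn1, was listed at 0 in both OTX-015 libraries. Kcne3, a potassium channel subunit, went from 9.09 and 9.06 RPKM to 0.682 and 0.522 RPKM, and the ATP-gated channel P2rx1 from 15.1 and 14.9 RPKM to 6.72 and 5.4 RPKM. Kcnab2, a beta subunit of voltage-gated potassium channels, went from 61.3 and 69.6 RPKM to 31.1 and 29.4 RPKM. On the other side Clic4, an intracellular chloride channel protein, and Ano10, an anoctamin, rose from means of 27.2 and 9.53 RPKM to 52.8 and 20.3 RPKM.

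**Figure D2:**
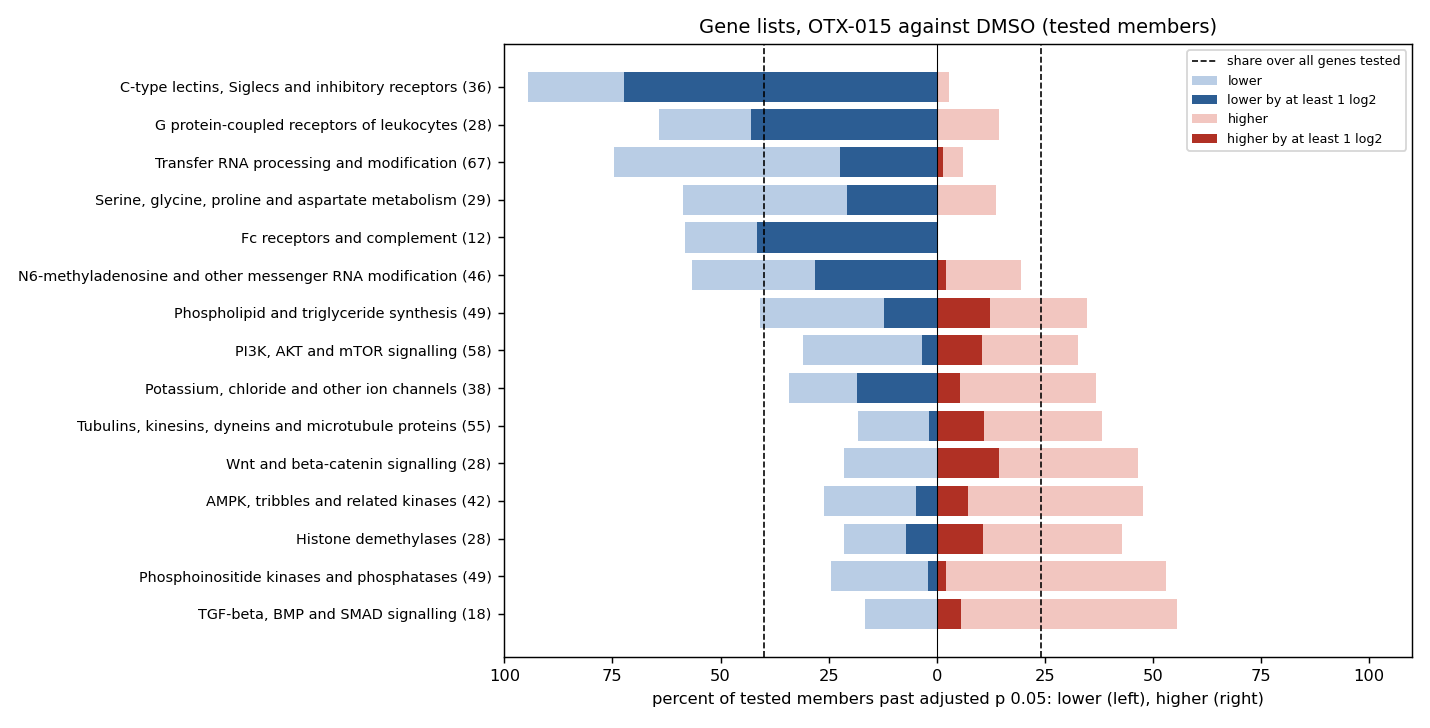
Percent of the tested members of each gene list that passed the adjusted p threshold of 0.05, downward to the left and upward to the right, with darker bars for changes of at least 1 log2, numbers of tested members in brackets and dashed lines at the shares over all genes tested, 40% and 24.2%. The lists are ordered by their median shift, from the C-type lectin list at the top to the TGF-beta list at the bottom.

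Enzymes that process and modify transfer RNA fell as a broad set. Such enzymes place chemical groups on set positions of the RNA, often as complexes of a catalytic and a supporting subunit. Of 67 tested genes, 50 fell, 4 rose and 13 did not pass (43 falls and 7 rises after upper-quartile scaling), where 40% of all genes fell and 24.2% rose. There were 15 falls of at least 1 log2, a size that 9.72% of all genes reached, and the shift was -0.47. Without the genes listed at 0 in a library there were 49 falls, 14 of them of that size. Several enzymes with paired subunits were among the deepest falls.

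Mettl1 and Wdr4 form the enzyme that puts 7-methylguanosine on tRNA. Mettl1 (chr10:127041414-127046365, plus strand) went from 18.6 and 18.8 RPKM to 2.35 and 2.15 RPKM, a log2 fold change of -2.60 ± 0.13 (limma adjusted p = 6e-08), and Wdr4 from 9.99 and 9.91 RPKM to 2.1 and 1.57 RPKM. Both subunits were lower in both OTX-015 libraries than in either DMSO library, which only describes genes named for their large falls.

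The pair that makes 1-methyladenosine gave unequal values for its subunits. The catalytic Trmt61a went from 12.3 and 9.76 RPKM to 1.25 and 1.35 RPKM, while the supporting Trmt6 went from 29.4 and 30.4 RPKM to 18.5 and 16.4 RPKM, log2 fold changes of -2.38 ± 0.14 and -0.75 ± 0.09. Qtrt1 and Qtrtd1, the 2 subunits of the enzyme that exchanges guanine for queuine, went from means of 17.2 and 7.6 RPKM to 5.77 and 1.4 RPKM. Among subunits of ribonuclease P, which trims the leader of tRNA, Rpp38, Rpp14, Rpp40 and Pop1, of which all but Rpp38 were chosen after their values were seen, had log2 fold changes of -1.79, -1.33, -1.08 and -1.05. Ctu1 and Ctu2, which add sulfur to the wobble uridine, had -1.12 and -0.48.

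The promoter of Qtrt1 is printed because this member of the tRNA list fell by at least 1 log2 and holds before its start the CACGTG E-box, a palindrome that MYC and related factors can bind. The window shown holds 80 bases at chr9:21411752-21411831 (GRCm38.p6, plus strand), with the E-box in capitals.
Qtrt1: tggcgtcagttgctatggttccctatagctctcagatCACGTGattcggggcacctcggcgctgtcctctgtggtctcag
The E-box was in 7 of 63 windows (11.1%) of the tRNA list, against 10.4% of the windows of all genes tested, 12.8% of those of genes lower by at least 1 log2 and 9.1% of those of genes higher by at least 1 log2. The share in the tRNA list was close to that of all genes.

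Among enzymes that modify messenger and other RNA, 26 of 46 tested fell and 9 rose (23 and 11 after upper-quartile scaling), and the shift was -0.23. Of all genes 40% fell and 24.2% rose. By at least 1 log2 there were 13 falls and 1 rise, where 9.72% of all genes fell and 3.69% rose as much. Of these 13 falls, 3 (Alkbh1, Nsun5 and Pusl1) were listed at 0 in both OTX-015 libraries and are taken up in the closing section. The pseudouridine synthases Pus1, Pus7 and Trub1 had means of 35.6, 16.5 and 5.46 RPKM in DMSO and of 11.1, 4.79 and 1.32 RPKM in OTX-015. Nsun2, which makes 5-methylcytosine, went from 67.2 and 70.5 RPKM to 24.2 and 21.9 RPKM, and Nat10, which makes N4-acetylcytidine, from 22.1 and 23.6 RPKM to 7.55 and 6.58 RPKM.

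The main machinery of N6-methyladenosine, the most abundant internal mark of messenger RNA, gave other values. Its catalytic core Mettl3, with 15 and 13.3 RPKM in DMSO and 14.2 and 14.4 RPKM in OTX-015, did not pass the test, nor did its partner Mettl14, with means of 14.2 and 12.8 RPKM. The recruiting subunit Wtap had means of 49.6 and 50.4 RPKM and passed as higher with upper-quartile, quantile and TPM scaling. Rbm15, a subunit that guides the complex to RNA, rose from 7.12 and 9.86 RPKM to 18.4 and 17.2 RPKM, and so did the eraser Alkbh5 and the nuclear reader Ythdc1, by log2 fold changes of 0.41 ± 0.11 and 0.39 ± 0.09. The call for Alkbh5 was lost without DMSO replicate 1 (adjusted p = 0.0521) and without OTX-015 replicate 1 (adjusted p = 0.0581). Mettl16, a separate methyltransferase that acts on the messenger RNA of Mat2a, fell from 22.7 and 23.2 RPKM to 9.67 and 9.81 RPKM.

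**Figure D3:**
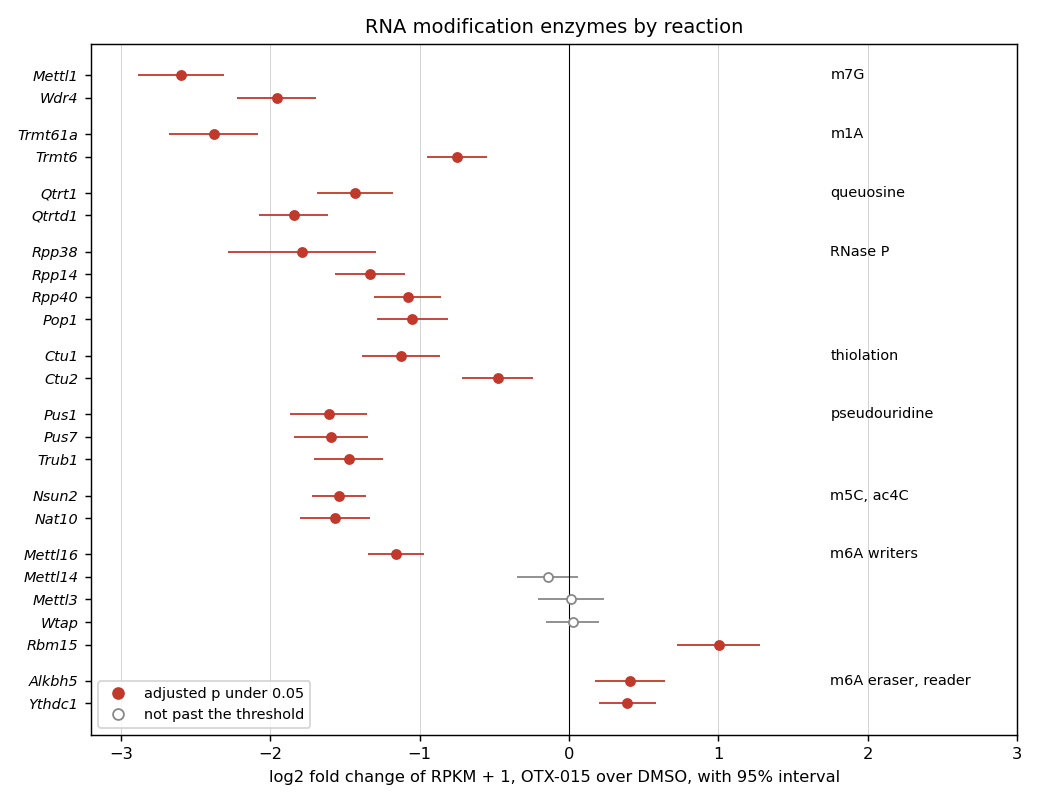
Log2 fold change of RPKM + 1, OTX-015 over DMSO, for RNA-modifying enzymes grouped by the reaction named at the right, with 95% intervals of the limma model. Points for the tRNA, pseudouridine, 5-methylcytosine and N4-acetylcytidine enzymes lie left of 0, the 3 open points are Mettl14, Mettl3 and Wtap, and Rbm15, Alkbh5 and Ythdc1 lie right of 0.

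Genes of serine, glycine, methionine and proline metabolism fell on balance. Of 29 tested, 17 fell and 4 rose (17 and 5 after upper-quartile scaling), 6 of the falls by at least 1 log2, where 40% of all genes fell and 24.2% rose. The shift was -0.45, and -0.27 without DMSO replicate 1. Enzymes of methionine salvage, which recovers methionine from the by-product of polyamine synthesis, were among the deepest falls. Mtap, the first of them (chr4:89137122-89181081, plus strand), went from 26.8 and 24.6 RPKM to 7.19 and 6.94 RPKM, a log2 fold change of -1.73 ± 0.09 (limma adjusted p = 7.91e-08). Mri1, Enoph1 and Adi1, which act after it, had means of 14.7, 25.7 and 36.6 RPKM in DMSO and of 4.9, 11.5 and 19.1 RPKM in OTX-015. Apip, the dehydratase between Mri1 and Enoph1, was against its pathway: 24.4 and 21.2 RPKM in DMSO and 36 and 29.1 RPKM in OTX-015, a log2 fold change of 0.49 ± 0.12 (limma adjusted p = 0.00489), with an adjusted p of 0.0631 without OTX-015 replicate 1.

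The hydroxymethyltransferases, which pass a carbon unit from serine to folate, fell in both compartments. Cytosolic Shmt1 went from 34.4 and 36.9 RPKM to 11 and 9.54 RPKM, and mitochondrial Shmt2 from 144 and 143 RPKM to 71.8 and 65.2 RPKM. The steps that make serine fell less, Phgdh and Psat1 by 0.63 and 0.61 on the log2 scale.

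Members of the inner mitochondrial membrane import machinery, which share the symbol stem Timm, fell as a family. Of 13 tested, 11 fell and none rose (10 and none after upper-quartile scaling), where 40% of all genes fell, and the shift was -0.67. The small carrier chaperones Timm10 and Timm9 went from means of 33.8 and 35.5 RPKM to 6.9 and 8.66 RPKM, with log2 fold changes of -2.13 ± 0.12 and -1.91 ± 0.11. The channel and receptor subunits Timm23 and Timm50 had log2 fold changes of -0.83 and -0.81. Mitochondrial ribosomal proteins of the Mrpl stem fell in 42 of 48 tested genes and rose in 1 (30 and 3 after upper-quartile scaling). Without Mrpl48, listed at 0 in OTX-015 replicate 1, the falls numbered 41. The shift of this stem was -0.47, and between -0.61 and -0.35 when any 1 of the 4 libraries was left out.

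Other groups of genes shifted upward. Sestrins, stress proteins that restrain mTORC1, the kinase complex that couples nutrients to growth, all rose. Sesn3 (chr9:14275067-14333101, plus strand) went from 0.614 and 0.96 RPKM to 9.27 and 8.14 RPKM, a log2 fold change of 2.44 ± 0.13 (limma adjusted p = 7.91e-08). Sesn2 went from 5.17 and 5.55 RPKM to 15.6 and 14 RPKM, and Sesn1 from 15 RPKM in both DMSO libraries to 24.8 and 21.4 RPKM. Ddit4, a further inhibitor of mTORC1, rose from 6.66 and 6.71 RPKM to 16.9 and 13.7 RPKM.

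The PI3K, AKT and mTOR list as a whole was divided, with 19 of 58 tested genes higher and 18 lower (29 and 12 after upper-quartile scaling). Of all genes 24.2% were higher and 40% lower with the deposited values (3555 and 3079 of 9975 after that scaling). By at least 1 log2, 6 were higher and 2 lower. Pik3r3, a regulatory subunit of PI3K, and Inpp4a, a phosphatase that acts on its products, rose from means of 0.797 and 2.78 RPKM to 5.37 and 12 RPKM. The kinases Akt1 and Akt2 fell from means of 113 and 28.6 RPKM to 70.5 and 15.8 RPKM. Lamtor4, part of the lysosomal anchor of mTORC1, went from 149 and 124 RPKM to 74.4 and 66.6 RPKM, and Tbc1d7, the third subunit of the TSC complex that inhibits it, from 11.4 and 10.4 RPKM to 4.16 and 3.56 RPKM.

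Kinases of the AMPK, tribbles, PIM, DYRK and CLK groups included more rises than falls, 20 against 11 of 42 tested. After upper-quartile scaling 26 rose and 5 fell. Of all genes 24.2% rose and 40% fell with the deposited values (3555 and 3079 of 9975 after that scaling). Relatives moved in opposite directions. Pim2 and Pim1, survival kinases downstream of cytokine receptors, rose from means of 4.27 and 2.64 RPKM to 17.1 and 6.29 RPKM, whereas Pim3 fell from 10.4 to 7.36 RPKM, a call lost without OTX-015 replicate 2 (adjusted p = 0.0728). Dyrk1b, a kinase that holds cells in quiescence, rose from 1.52 and 1.64 RPKM to 7.41 and 6.28 RPKM, and Dyrk3, which dissolves condensates in dividing cells, fell from 5.86 and 5.36 RPKM to 1.57 and 1.8 RPKM. Sgk1, a kinase related to AKT, rose from 2.02 and 2.21 RPKM to 6.82 and 6.02 RPKM, while Prkag2, a regulatory subunit of AMPK, fell from 6.32 and 5.86 RPKM to 1.49 and 2.11 RPKM. Clk1, a kinase of splicing factors, rose from 67 and 62.8 RPKM to 124 and 116 RPKM.

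Enzymes of phosphoinositides, the signalling lipids of membranes, rose in 26 and fell in 12 of 49 tested genes (30 and 8 after upper-quartile scaling). Over all genes 24.2% rose and 40% fell with the deposited values (3555 and 3079 of 9975 after that scaling). By at least 1 log2, 3.69% of all genes rose and 9.72% fell. In this list 1 gene fell as much. The list's 1 rise of that size, Inpp5e, was listed at 0 in DMSO replicate 2. Without it the list had 25 rises and 0 of at least 1 log2. Pikfyve, the kinase that makes the bisphosphate of endosomes, went from 4.57 and 5.26 RPKM to 10.5 and 9.43 RPKM. The 4-kinases of the type II class parted: Pi4k2a rose from a mean of 8.38 to 15.4 RPKM and Pi4k2b fell from 50.6 to 27 RPKM.

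Among Wnt signalling genes 13 of 28 rose and 6 fell (16 and 5 after upper-quartile scaling). Of all genes 24.2% rose and 40% fell with the deposited values (3555 and 3079 of 9975 after that scaling). By at least 1 log2, 3.69% of all genes rose and 9.72% fell. All 4 changes of that size in the Wnt list were upward. Ctnnb1, beta-catenin, the abundant co-activator of the pathway, rose from 97.4 and 99.3 RPKM to 238 and 220 RPKM, a log2 fold change of 1.21 ± 0.08 (limma adjusted p = 4.18e-07). The Wnt receptor Fzd5 rose from 0.323 and 0.52 RPKM to 4.98 and 4.64 RPKM, and Ctnnbip1, which inhibits beta-catenin, from 2.21 and 1.92 RPKM to 5.7 and 5.28 RPKM. Both an activator and an inhibitor of the pathway thus rose, while the co-repressor Tle3 fell from a mean of 17.2 to 8.57 RPKM. Of 18 tested TGF-beta and SMAD genes 10 rose and 3 fell (13 and 1 after upper-quartile scaling). Among the rises were the inhibitors Ski, from 11.4 and 13.4 RPKM to 29.7 and 26.6 RPKM, and Smurf2, from 6.66 and 7.58 RPKM to 13.8 and 12.2 RPKM.

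Histone demethylases rose in 12 (11 without Kdm1b, listed at 0 in DMSO) and fell in 6 of 28 tested genes. After upper-quartile scaling 16 rose and 5 fell. Of all genes 24.2% rose and 40% fell with the deposited values (3555 and 3079 of 9975 after that scaling). The shift of this list was 0.36, and 0.19 without DMSO replicate 1. Kdm4b and Kdm5b, which act on different methylated lysines of histone H3, rose from means of 4.99 and 9.57 RPKM to 12.9 and 20.2 RPKM. Kdm7a and Kdm3a rose by log2 fold changes of 0.78 ± 0.13 and 0.72 ± 0.11. In the other direction went Mina and Kdm8, relatives now known as hydroxylases, from means of 25.8 and 6.28 RPKM to 9.01 and 2.22 RPKM.

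Microtubule genes gained 21 rises against 10 falls among 55 tested (30 and 4 after upper-quartile scaling). Over all genes 24.2% rose and 40% fell with the deposited values (3555 and 3079 of 9975 after that scaling). By at least 1 log2, 3.69% of all genes rose and 9.72% fell. Among the microtubule genes 6 rose as much, beta-tubulins among them. Tubb2a went from 6.82 and 7.26 RPKM to 29.7 and 26.8 RPKM. Its close copy Tubb2b went from 2.06 and 1.73 RPKM to 6.73 and 5.81 RPKM, and Tubb6 from 52.1 and 52.6 RPKM to 134 and 118 RPKM. The most abundant of those named, Tubb4b, rose from 329 and 315 RPKM to 579 and 531 RPKM, a smaller step. Reads that Tubb2a and Tubb2b share could have been split between them by the authors' counting. The 1 fall of that size was Tuba8, an alpha-tubulin, from 70.8 and 64 RPKM to 23.6 and 21.7 RPKM. Motor proteins were among the rises: Kif1b, a kinesin that carries organelles, went from 5.9 and 7.54 RPKM to 17.9 and 16.6 RPKM, and the dynein heavy chain Dync1h1 from 11.3 and 18.2 RPKM to 31.6 and 28.9 RPKM.

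Phospholipid and triglyceride synthesis had 17 rises and 20 falls among 49 tested genes (23 and 15 after upper-quartile scaling), with 6 of each of at least 1 log2. Over all genes 24.2% rose and 40% fell with the deposited values (3555 and 3079 of 9975 after that scaling), so the share of falls in this list was close to that of all genes. Dgat1 and Dgat2, unrelated enzymes for the last step of triglyceride synthesis, both rose. Dgat1 (chr15:76502015-76511953, minus strand) went from 18.4 and 17.4 RPKM to 54.2 and 43.3 RPKM, a log2 fold change of 1.39 ± 0.10 (limma adjusted p = 9.56e-07), and Dgat2 from 8.46 and 8.09 RPKM to 20.4 and 17.8 RPKM. The kinases that start phosphatidylcholine and phosphatidylethanolamine synthesis, Chka and Etnk1, rose from means of 7.71 and 15.2 RPKM to 18.6 and 36.1 RPKM, as did Chpt1, which completes phosphatidylcholine, from 5.99 to 14.1 RPKM. Pnpla8, a phospholipase, rose from 6.42 and 6.04 RPKM to 16.1 and 15.5 RPKM.

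The same list held falls. Pemt, which methylates phosphatidylethanolamine to phosphatidylcholine, went from 4.94 and 5.15 RPKM to 1.1 and 1.08 RPKM. Mboat1, an acyltransferase of lysophospholipids, went from 7.94 and 8.16 RPKM to 3.2 and 2.71 RPKM, and Acsl5, which activates long-chain fatty acids, from 65.3 and 67.7 RPKM to 31.4 and 28.6 RPKM. Ptpmt1 and Crls1, successive enzymes of mitochondrial cardiolipin synthesis, fell from means of 36.9 and 26.5 RPKM to 14.1 and 11.7 RPKM. For each of these 5 genes both OTX-015 libraries lay below both DMSO libraries, which is no added support because they were chosen with earlier results known.

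**Figure D4:**
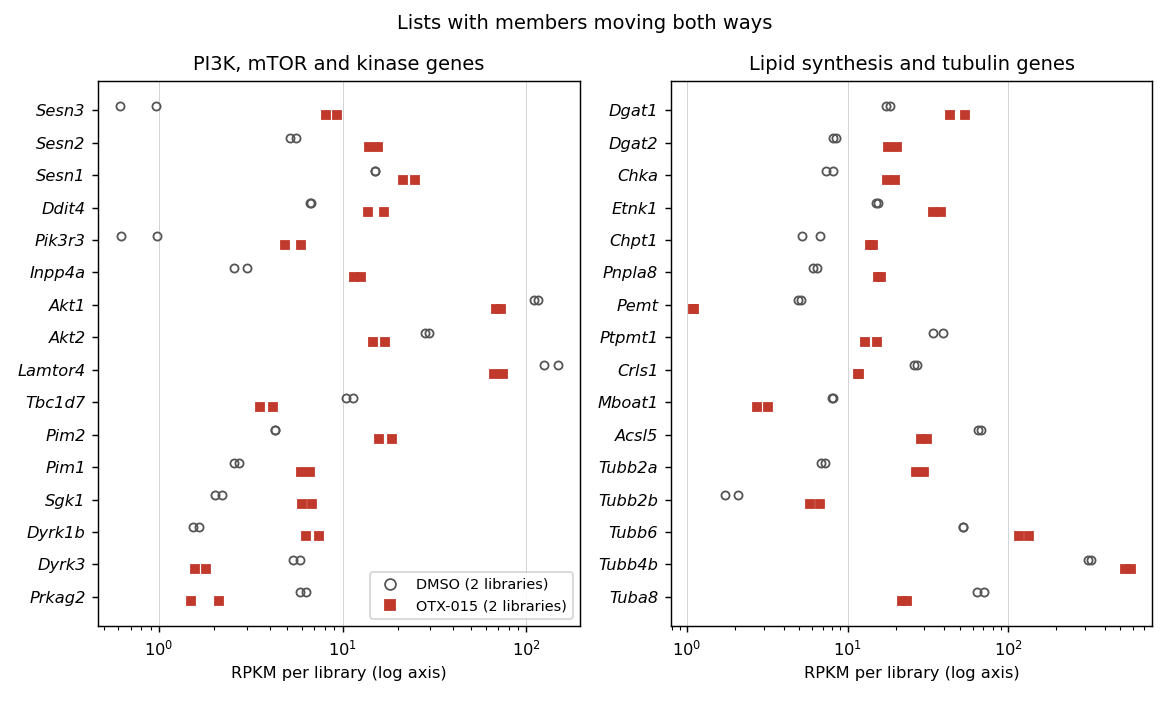
RPKM of single libraries on a log axis for genes of lists that changed in both directions, with open circles for the 2 DMSO libraries and filled squares for the 2 OTX-015 libraries. The sestrin genes, Dgat1 and Dgat2 and the beta-tubulins lie higher in OTX-015, while Akt1, Akt2, Pemt, Crls1 and Tuba8 lie lower.

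The largest single changes fell on genes of varied function. The largest falls included Dio2, the deiodinase that activates thyroid hormone, from 11.8 and 13.2 RPKM to 0.372 and 0.43 RPKM, and Cd180, a receptor related to the Toll-like receptors, from 29.9 and 35.5 RPKM to 2.92 and 2.31 RPKM. Dctd, which makes deoxyuridylate for thymidylate synthesis, went from 12.9 and 14.9 RPKM to 0.673 and 0.804 RPKM. All 3 fell by over 3 on the log2 scale.

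Genes better known from other lineages were among them. Cd28, the co-stimulatory receptor of T cells, went from 32.4 and 35.1 RPKM to 3.48 and 3.32 RPKM, and Ubash3a, a negative regulator of T cell receptor signals, from 24.8 and 27.5 RPKM to 1.95 and 2.27 RPKM. The T cell genes Cd3e, Cd4 and Cd8a were listed at 0 in all 4 libraries, and the summed level of the 19 T and NK cell markers in the table, 39 and 39.2 RPKM in DMSO and 5.68 and 5.12 RPKM in OTX-015, was mostly Cd28. Pecam1, an adhesion molecule of endothelium and leukocytes, fell from 50.4 and 57.9 RPKM to 7.29 and 6.67 RPKM, and Dnmt3l, a partner of the DNA methyltransferases known from germ cells, from 18.9 and 16.6 RPKM to 1.52 and 1.32 RPKM. Secreted factors fell as well: F10, coagulation factor X, gave 59.1 RPKM in both DMSO libraries and 9.05 and 7.36 RPKM in OTX-015, and Angptl4, an inhibitor of lipoprotein lipase, went from 12 and 12.2 RPKM to 0.615 and 0.562 RPKM. Thbs1, the matrix protein thrombospondin, went from 46.1 and 58.5 RPKM to 5.51 and 4.89 RPKM, and Sla, an adaptor that dampens receptor signals, from 31.6 and 32.4 RPKM to 3.63 and 2.98 RPKM.

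Of the largest rises, Frmd6, a FERM-domain protein linked to Hippo signalling (chr12:70825514-70902234, plus strand), went from 0.129 and 0.219 RPKM to 5.84 and 5.52 RPKM, 32.7-fold by the ratio of means. Trp53inp2, a regulator of autophagy, rose from 4.65 and 4.79 RPKM to 36 and 30.7 RPKM, Cnnm4, a magnesium transporter, from 3 and 3.48 RPKM to 22.6 and 21.3 RPKM, and Baiap2, which bends membranes along actin, from 9.32 and 9.57 RPKM to 49.1 and 45 RPKM. Libraries of a group differed little beside these changes. Whether the authors counted by strand is not stated, and in GENCODE M21 exons of Cd180, Dnmt3l, Pilra, Mettl1, Ctu2, Nsun2, Mettl3, Shmt1, Shmt2, Timm9, Chpt1, Ptpmt1, Acsl5, Tubb4b and Ctnnb1 overlap those of a coding gene on the opposite strand, and exons of Lilrb4a and Pik3r3 overlap one on the same strand, so reads of these pairs may have been shared.

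The levels under OTX-015 were set beside those under the other 2 compounds by direct contrasts, with no match for dose known. Against BBC1115, 29.7% of all genes were higher under OTX-015 and 14.2% lower. Of the 368 genes that rose by at least 1 log2 over DMSO, 237 were lower under OTX-015 than under BBC1115 and 11 were higher, and of the 970 that fell as much, 523 were higher under OTX-015 and 29 lower. These genes were chosen with the same OTX-015 libraries that enter the contrast.

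Receptor genes followed that order. In the C-type lectin list 25 of 36 genes were higher under OTX-015 than under BBC1115 and none lower. Cd33 had a mean of 6.41 RPKM under OTX-015 and 1.95 RPKM under BBC1115, a difference of 1.33 ± 0.10 on the log2 scale (limma adjusted p = 5.09e-06), and 49 RPKM under RVX-208. Mettl1 was level, with 2.25 RPKM under OTX-015 and 2.27 RPKM under BBC1115 and a 95% interval of the log2 difference from -0.28 to 0.29.

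Some genes went against this order. Clec2i had means of 57.3 RPKM under OTX-015, 32.7 RPKM in DMSO and 25.1 RPKM under BBC1115, so it was higher than in DMSO with OTX-015 and lower with BBC1115. In the serine and methionine list 12 of 29 genes were lower under OTX-015 than under BBC1115 and 2 were higher. Mat2a, which makes S-adenosylmethionine, had 93.8 and 85 RPKM under OTX-015 and 141 and 137 RPKM under BBC1115, next to 142 and 144 RPKM in DMSO. Psat1 and Phgdh had means of 139 and 68.8 RPKM under OTX-015 and of 195 and 90.1 RPKM under BBC1115, with log2 differences of -0.49 ± 0.09 and -0.38 ± 0.09. Dyrk1b was higher under OTX-015 than under BBC1115, 6.85 and 4.84 RPKM. Genes at least 1 log2 from each of the 3 other groups were few, 1 higher (0.01% of all genes) and 3 lower (0.0301%), and the 3 lower ones, Rrp8, Alkbh1 and 3110001I22Rik, were listed at 0 in both OTX-015 libraries.

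**Figure D5:**
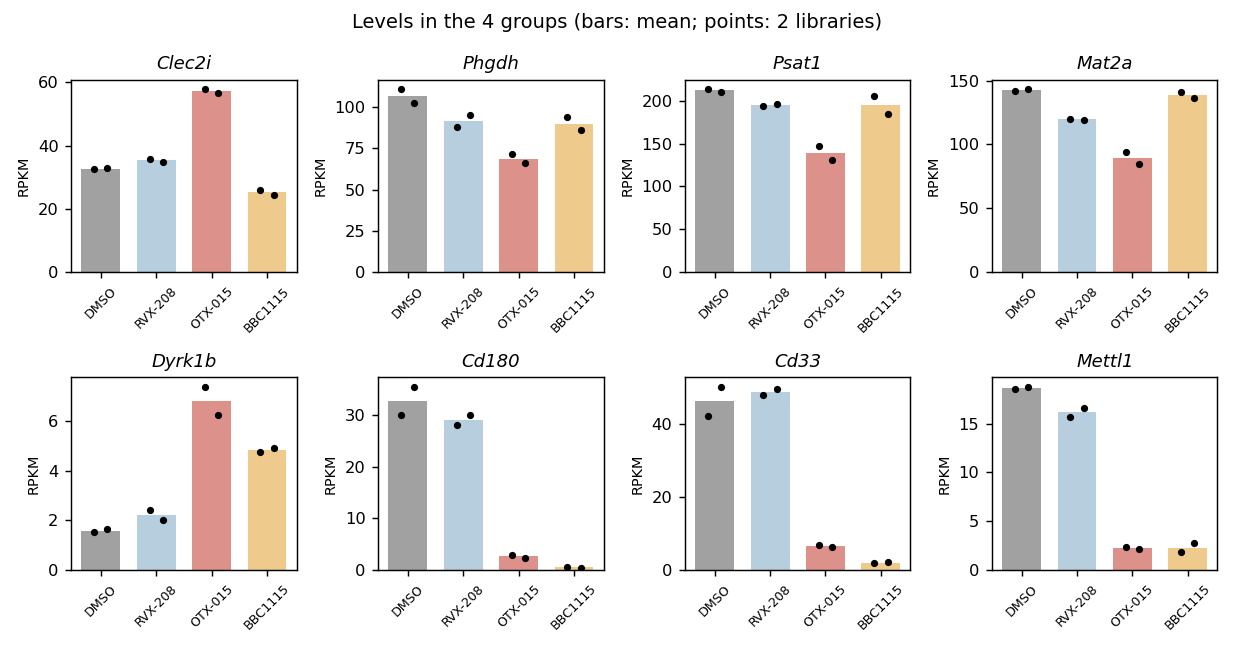
Mean RPKM of the 2 libraries of each of the 4 groups (bars, from 0) with single libraries as points, for 8 genes. Clec2i is highest and Psat1, Phgdh and Mat2a are lowest under OTX-015, Cd33 and Cd180 are lower still under BBC1115, and Mettl1 stands at about the same level under both.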

How the data were processed

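Total RNA was extracted with a phenol reagent and sequenced from directional mRNA libraries, per the labels' protocols. The authors deposited 1 table of RPKM for 20484 symbols. STAR, Cufflinks and the mm10 build appear, without versions, in the submitters' processing notes. All columns of the table were used. Values were tested as log2(RPKM + 1), which understates changes of low genes. The 9975 genes that reached 1 RPKM in 2 or more libraries were fitted with limma 3.58.1 in R 4.3.3, with a mean for each of the 4 groups and a trend of variance with level (residual df 4, prior df 6.81). Tests were two-sided, with Benjamini-Hochberg adjustment over all genes of a contrast and a threshold of 0.05. On simulated data of the OTX-015 and DMSO comparison with 9975 genes, 98 of 100 genes changed by 1 log2 and 100 of 100 changed by 2 log2 were recovered, and 10 unchanged genes were called. The changed genes were drawn only from those of moderate or high level in DMSO. Recovery of low genes, or with as many genes changed as in these data, was not tested. The table gives no reads, so depth is an estimate and no count test was run.

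The members and the 78 gene lists were chosen with earlier results of these data known. Named genes are the markers, the 25 largest changes each way without overlap and above 5 RPKM, and up to 6 called members of a list or 4 of a symbol stem above 2 RPKM, of which the text takes a part. Beside these, 45 genes with values, and the genes named as listed at 0, were chosen after their values were seen. Alternatives covered pseudocount, filter, scaling, variance trend, the groups fitted, a replicate block and leaving out each library. Coordinates follow GENCODE M21 on mm10 and promoters RefSeq on GRCm38.p6. A few single-gene results are not reported here.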

Additional observations from a re-analysis of the deposited data

How the results depend on the processing

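Of 82 counts under the alternatives, 64 stayed within 1.5 times their value. The 2418 rises became 3641 with quantile normalization, and the 368 rises of at least 1 log2 became 615 with a pseudocount of 0.1 and 724 after scaling to TPM. Genes higher than all 3 other groups numbered 1, and 0 without a filter on low values and with quantile, TPM and upper-quartile scaling. Genes lower than all 3 numbered 3, and 7 with the pseudocount of 0.1, 5 with TPM and 0 without the genes listed at 0, an alternative chosen after seeing the data. Leaving out 1 library gave 1770 to 2474 rises, 3119 to 3928 falls, 340 to 445 and 864 to 1110 of at least 1 log2, 0 to 22 genes higher than all 3 groups (22 without OTX-015 replicate 1) and 3 to 5 lower. The cause was not tested.

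With the replicate number as a block there were 2511 rises and 4167 falls, and 2 genes higher and 5 lower than all 3 groups. Deviations of same-numbered DMSO and OTX-015 libraries had a correlation of -0.034, so the numbers were not taken to pair them. No fold change of the 143 genes named with a test and no shift of the 15 lists reversed. Of 195 values of these list shifts under the alternatives, 52 moved by more than the standard deviation between replicates. Families formed by symbol stem are not part of this count. Calls for Tyrobp, Apip, Pim3 and Alkbh5 were lost under at least 1 alternative, and Fcer1g (with TPM) and Wtap (under 3 scalings) were called higher. With 2 libraries a group, the precision of low genes is limited.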

Other observations

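RNA-decay factors of the deadenylation, decapping and AU-rich element list were divided, with 13 of 48 tested genes higher and 11 lower (21 and 4 after upper-quartile scaling). The shares over all genes were 24.2% and 40% with the deposited values (3555 and 3079 of 9975 genes after that scaling). Btg1, an antiproliferative protein that recruits deadenylases, rose from 13.6 and 11.9 RPKM in DMSO to 56.5 and 52.4 RPKM in OTX-015, a log2 fold change of 2.01 ± 0.09 (SE, n = 2 libraries a group, limma adjusted p = 3.25e-08). Zfp36, which brings decay enzymes to AU-rich elements, rose from 22.1 and 18.5 RPKM to 60.5 and 54.7 RPKM. Hnrnpd, another AU-rich element binder, fell from 57.8 and 57.5 RPKM to 15.3 and 15 RPKM. No group overlapped the other for these genes, which were named for their large changes.

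Calcium signalling genes rose in 14 and fell in 9 of 39 tested (23 and 5 after upper-quartile scaling), next to the same values of all genes, 24.2% and 40% with the deposited values (3555 and 3079 of 9975 after that scaling). Plcb2, a phospholipase C that acts below G protein-coupled receptors, went from 19.6 and 25.1 RPKM to 8 and 7.44 RPKM. Among families formed by symbol stem, 14 of 22 Klhl genes, substrate adaptors of cullin ligases, rose and 6 fell, and 16 of 29 genes of the Map stem, most of them MAP kinases, rose and 6 fell. The shifts of these stems were 0.48 and 0.47. Nras, which the cells also carry in an activated form, stood at 160 and 164 RPKM in DMSO and at 453 and 416 RPKM in OTX-015, and the table has a single row for it.

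Some genes were listed at exactly 0 in a library although another of the 4 libraries had at least 5 RPKM, 42 in all. Of the 40 matched to 1 annotated gene, 37 (92.5%) had an exon overlapping a protein-coding gene, against 22.3% of tested genes matched alike. Of the 42, 15 were at 0 in both OTX-015 libraries and in no DMSO library, and 8 the other way round. Plppr3, with 43.5 and 49.1 RPKM in DMSO, Bysl, with 16.4 and 15 RPKM, and Irf5, with 11.2 and 12.8 RPKM, were listed at 0 under OTX-015. Ddit3, with 28 and 24.9 RPKM under OTX-015, and Nab2, with 23.8 and 22.6 RPKM, were listed at 0 in DMSO. Alkbh1, Nsun5 and Pusl1 are among the former, and without genes listed at 0 the messenger RNA modification list had 9 rises and 23 falls, 10 of the falls by at least 1 log2. Whether these zeros are failed estimates was not tested, so no fold change is given for such a gene.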
